A study of Mus musculus with 20 samples.

Results

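The nuclear genes that encode subunits of the mitochondrial respiratory chain and of ATP synthase were followed in mouse colonoids, which are organoids grown from colonic crypts. Members were taken by symbol, as Nduf subunits, Sdha to Sdhd, Uqcr genes, Cox4 to Cox8 genes and Atp5 genes. They had to reach a mean normalised expression of at least 5 over the 20 libraries. Of 35240 gene symbols, 95 matched, 7 of these were pseudogene symbols ending in -ps and were set aside, 6 fell below the minimum, and 82 remained. They comprised 37 genes of complex I, 4 of complex II, 8 of complex III, 16 of complex IV and 17 of complex V. Ndufa4 was counted with complex IV, where its protein is now placed.

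The cultures came from distal-colon crypts of WT mice (C57BL/6) and of mice with whole-body loss of TNFR2 (Tnfr2-/-, B6.129S2-Tnfrsf1b tm1Mwm/J), a receptor for tumor necrosis factor. Both genotypes were grown in Matrigel and passaged before the course, and were collected on days 1, 2, 3, 5 and 7 post-passage (DPP). Each of the 10 groups held 2 libraries, numbered 1 and 2 in the labels. The 5 libraries of 1 genotype and number are called a replicate here. Whether they came from 1 animal is not spelled out, and the p-values measure only the spread between these libraries. The deletion is not restricted to epithelium, and the study's single-cell data of such cultures held fibroblasts beside epithelial cells. DPP 1 to 3 are called early and DPP 5 and 7 late.

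The respiratory chain passes electrons from NADH through complex I, and from succinate through complex II, to complex III and then to complex IV, which reduces oxygen. Complexes I, III and IV pump protons across the inner mitochondrial membrane, and complex V, the ATP synthase, uses the gradient to make ATP. In the colon, differentiated absorptive cells oxidise butyrate through this route. A few subunits have tissue-specific or oxygen-dependent versions, among them Ndufa4l2 and Cox4i2, both known as hypoxia-inducible genes.

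The deposited values are TPM (a share of transcripts that allows for their length) divided by a size factor for each library, summed here per gene and called normalised expression. These sum to between 900655 and 1111080 per library, and the reads behind a single value are not known, so no counting interval is given. Tnfrsf1b, the targeted gene, lay between 11.1 and 21.9 in WT libraries and between 2.71 and 11.5 in Tnfr2-/- libraries, where the highest value, from Tnfr2-/- replicate 2 at 7 DPP, lay just above the lowest WT value. The epithelial markers Epcam and Vil1 were present throughout, with Epcam at 361.7 or more in each library. The summed level of 9 fibroblast markers was 1910 to 3639 in WT early, 1092 to 3555 in WT late, 2671 to 3964 in Tnfr2-/- early and 3244 to 7067 in Tnfr2-/- late libraries, with no marker at 0 throughout. Endothelial markers summed to at most 4.17 and immune markers to at most 48.4.

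Levels differed widely between members. In complex I the highest mean was that of Ndufa7 (269, SD 36.4, n = 20 libraries) and the lowest that of Ndufa11 (16.8), both accessory subunits. In complex II, Sdhc, a membrane anchor, was highest at 224 and Sdhb, the iron-sulfur subunit, lowest at 83.0. In complex III the hinge protein Uqcrh reached 471, while the Rieske iron-sulfur protein Uqcrfs1 had 111. Complex IV was led by Cox6b1 at 777 and Cox4i1 at 775, with Cox4i2 at 5.32 the lowest member of all. Cox4i2 reached the minimum of 5 only through its late Tnfr2-/- libraries (mean 2.82 without them), and Cox7a1 only through its late WT libraries (7.35, and 4.73 without them). The genotype and late differences of these 2 genes are therefore partly fixed by the choice of members, and counts are also given for the other 80. Complex V held the highest member of all, the catalytic beta subunit Atp5b at 1054 (SD 162), and also Atp5s, a coupling factor, at 13.3. The 6 genes below the minimum were tissue-restricted versions or copies. Cox6a2 averaged 0.338, Ndufa11b 0.309 and Cox7b2 0.0696, and Cox8b, Cox8c and Ndufs6b were listed at 0 in each library.

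Spread was compared next. The median coefficient of variation over the 20 libraries was 15.8% for the members and 25.7% for all genes with a mean of at least 5, but the members were also higher, with a median level of 174.6 against 26.9. Across complexes the median ran from 14.5% in complex II to 17.7% in complex IV. The widest spreads were those of 3 isoforms, Cox7a1 and Cox4i2 with 125% each and Ndufa4l2 with 121%. In the map of member levels by library, the rows of Ndufa4l2, Cox4i2 and Cox7a1 stand out from a paler field.

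**Figure D1:**
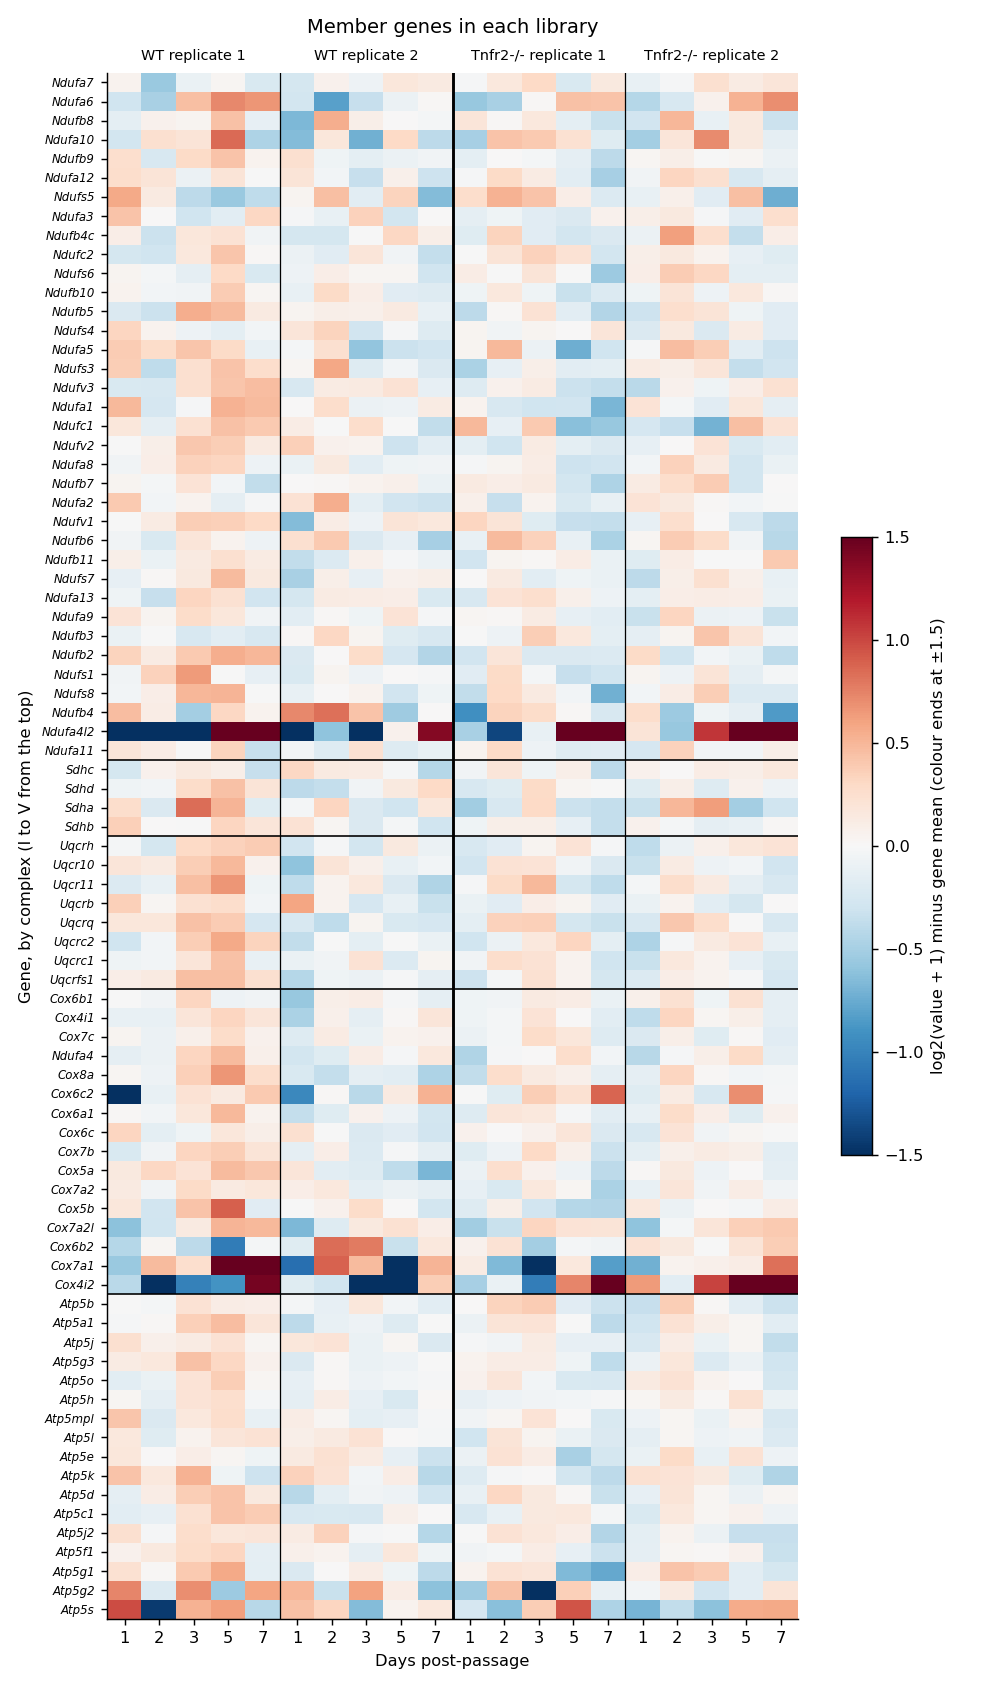
Each row is 1 of 81 members, ordered by complex from I at the top to V at the bottom and by mean within a complex, and each column is a library, ordered by genotype, replicate and day. Colour gives log2(value + 1) minus the mean of the gene, and the column of WT replicate 1 at 5 DPP is red for most rows (70 of 82 members above their own mean), while that of Tnfr2-/- replicate 1 at 7 DPP is mostly blue (8 of 82 above).

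Some levels depend on how reads were divided among transcripts. Ndufb4c and Cox6c2 are annotated as processed pseudogenes, yet averaged 149 and 429, against 39.8 for Ndufb4 and 350 for Cox6c. The Ndufb4c transcript matched that of Ndufb4 over 390 bases at 100% identity, and Cox6c2 matched Cox6c over 231 bases at 97.0%, so the division within each pair is uncertain. Atp5g2, Atp5l, Ndufa12 and Ndufs5 likewise share at least 200 bases at 95% identity or more with a gene copy of mean 5 or higher. The largest of these copies is Gm10175, with a mean of 207 against 125 for Atp5g2. For 19 members, leaving aside the 2 pseudogenes and 3 genes counted under 2 gene identifiers, protein-coding transcripts held under 60% of the value. Ndufs4 had 96.0% and Ndufa3 92.7% of its value on transcripts annotated for nonsense-mediated decay, and Cox7b had 87.0% on a retained-intron transcript. Ndufa7, the highest gene of complex I, had 24.8% on protein-coding transcripts, or 66.7. Each comparison was therefore repeated on protein-coding transcripts alone, and calls lost there are given beside them.

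The summed expression of all 82 members overlapped between the genotypes in both phases. It ranged from 17580 to 22685 in WT early, 17907 to 23971 in WT late, 17378 to 21559 in Tnfr2-/- early and 16976 to 19849 in Tnfr2-/- late libraries. The highest sums were those of WT replicate 1 at 5 DPP and 3 DPP. At 5 DPP, WT replicate 1 lay above WT replicate 2 for 71 of 82 members, and at 3 DPP for 64. How many of all genes did so was not counted. WT replicate 1 at 5 DPP also had the lowest fibroblast marker sum of the 20 libraries (1092, against 2967 in WT replicate 2). Its sums of goblet markers (2196 against 264) and of colonocyte markers (983 against 302.8) were the highest. The part of these in its member levels was not tested. As a share of all expression in the library, the members held 1.88% to 2.32% in WT late and 1.70% to 1.79% in Tnfr2-/- late libraries, with no overlap. The early shares overlapped, at 1.92% to 2.32% in WT and 1.87% to 2.09% in Tnfr2-/-. The late sums thus overlapped on the deposited scale and not as shares. Rescaling to a common total moved the late genotype median of all genes from -0.05 to -0.12, and that of the members from -0.16 to -0.24. As shares, 19 of 82 members lay wholly below WT in the late Tnfr2-/- libraries, against 9.03% of all genes, and 1 wholly above, against 3.61%. By complex, the late shares did not overlap for complex I (0.442% to 0.537% in WT and 0.388% to 0.423% in Tnfr2-/-), complex III (0.194% to 0.271% and 0.180% to 0.193%) and complex V (0.597% to 0.712% and 0.5004% to 0.5480%), and they overlapped for complexes II and IV.

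By complex, the late sums of complex I were 4747 ± 594 in WT and 4338 ± 289 in Tnfr2-/- (SD, n = 4 libraries of 2 replicates). Those of complex V were 6385 ± 749 and 5574 ± 444. Complex II reached 652 ± 89.7 and 585 ± 43.2, complex III 2202 ± 431 and 1969 ± 136, and complex IV 6335 ± 837 and 5958 ± 449. Each Tnfr2-/- mean was lower, and in each complex the libraries of the genotypes overlapped.

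**Figure D2:**
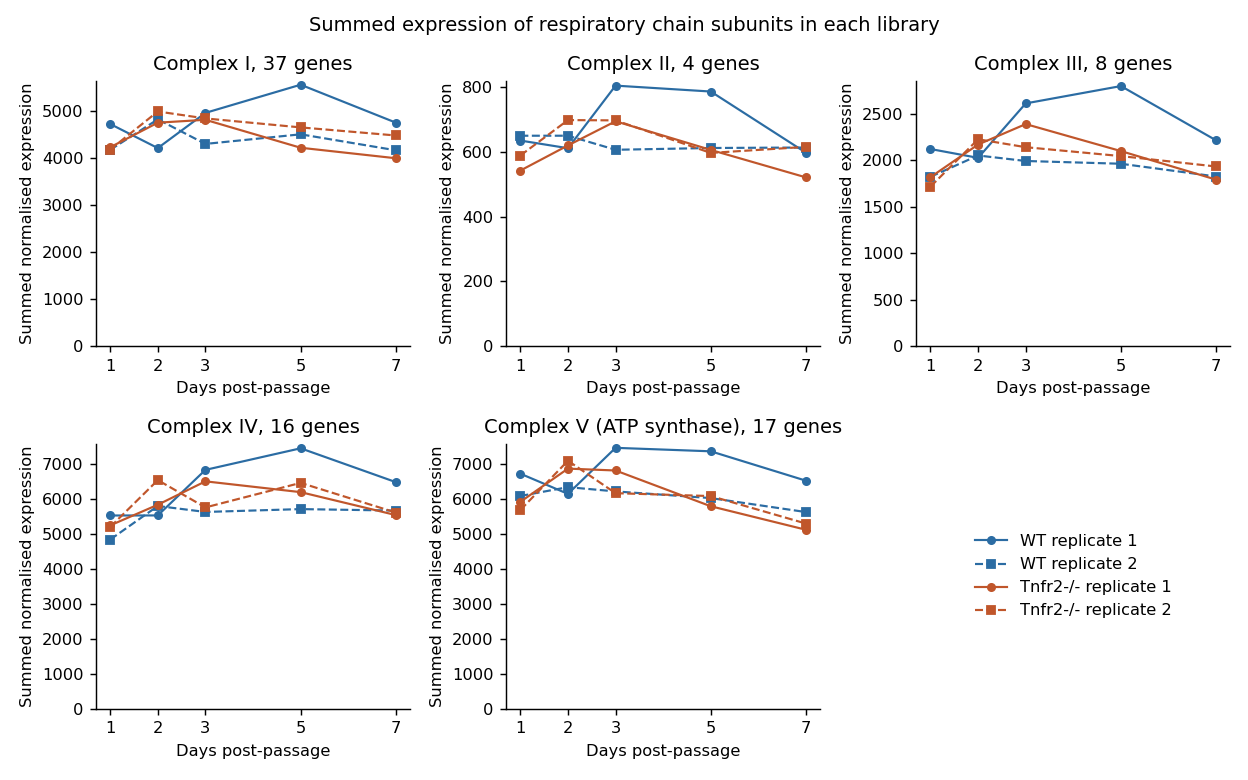
Each panel plots the summed normalised expression of 1 complex against days post-passage for the 4 replicates, WT in blue and Tnfr2-/- in orange, with replicate 1 as circles and replicate 2 as squares. WT replicate 1 rises above the other 3 replicates at 3 and 5 DPP in each complex, reaching 804 for complex II at 3 DPP and 7458 for complex IV at 5 DPP.

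To ask whether loss of TNFR2 altered these genes over the course, genotype was first tested over all days. Few members differed. Ndufa4l2 and Cox4i2 were higher in Tnfr2-/- colonoids and no member was lower, so that 2 of 82 members were called (adjusted p under 0.05), against 7.6% of the 13539 genes tested (4.51% higher and 3.09% lower). Leaving aside Cox4i2 and Cox7a1, 1 of 80 was called. With each library rescaled to the same total, 2 were higher and 6 lower, and with quantile normalisation 2 and 3. Without WT replicate 2, 2 were higher and 7 lower, and without Tnfr2-/- replicate 2 none was called. The median log2 fold change of the members was -0.06, against -0.03 over all genes. Here and below, a lower level in a bulk sample may reflect fewer cells of a type or less RNA per cell, and these cannot be told apart.

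Ndufa4l2 (ENSMUSG00000040280, chromosome 10, 127514967 to 127517154, plus strand, GRCm38) encodes a paralog of Ndufa4. In order of day it was 1.52, 0, 3.10, 53.8 and 90.4 in WT replicate 1 and 1.73, 10.4, 1.83, 17.1 and 43.8 in WT replicate 2. The Tnfr2-/- values were 11.4, 5.69, 15.1, 66.3 and 108.7 in Tnfr2-/- replicate 1 and 18.8, 10.7, 35.5, 113.0 and 166.0 in Tnfr2-/- replicate 2. Both Tnfr2-/- replicates lay above both WT replicates on each day but day 2, when WT replicate 2 lay between them. On the log2(value + 1) scale the genotypes differed by 1.87 over all days (SE 0.38, limma adjusted p = 0.006435), which fell short of significance on means of 2 replicates against 2 (adjusted p = 0.184). Without Tnfr2-/- replicate 2 it was 1.47 and no longer called (adjusted p = 0.197).

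Cox4i2 (ENSMUSG00000009876, chromosome 2, 152754173 to 152765037, plus strand) encodes an alternative version of the regulatory subunit COX4. It was 2.11, 0, 1.05, 1.21 and 10.2 in WT replicate 1 and 2.63, 2.34, 0, 0 and 4.35 in WT replicate 2. Among Tnfr2-/- cultures it was 1.92, 2.84, 1.02, 5.83 and 12.1 in Tnfr2-/- replicate 1 and 5.43, 2.70, 7.36, 17.5 and 25.9 in Tnfr2-/- replicate 2. The libraries of Tnfr2-/- replicate 2 at 5 and 7 DPP were the highest, and the genotypes overlapped in the early phase. Over all days the Tnfr2-/- cultures were higher by 1.43 (log2, SE 0.37), and by 0.86 without Tnfr2-/- replicate 2. These values are a description, since the late Tnfr2-/- libraries that made Cox4i2 a member enter them. Its call was lost with replicate as a correlated block, on replicate means and without Tnfr2-/- replicate 2.

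Marker lists are given here beside the 4.51% of all genes higher and 3.09% lower over all days. Of 9 fibroblast markers tested, 2 were higher (Dcn, a matrix proteoglycan, by 1.65 on the log2 scale and Thy1 by 1.37) and none was lower. Among those not called, Pdgfra (57.0 in WT and 50.8 in Tnfr2-/-) and Col3a1 (1490 and 1398) had lower means in Tnfr2-/- libraries. Lum was similar (75.0 and 77.0), and Col1a1, Col1a2, Pdgfrb and Acta2 had higher means. The summed level of the list was 1092 to 3639 in WT and 2671 to 7067 in Tnfr2-/- libraries. Of 6 immune markers, 2 were high enough to be tested and both were higher (Cd68 by 1.13 and Csf1r by 0.76), with the list summing to 8.53 to 21.03 in WT and 17.3 to 48.4 in Tnfr2-/- libraries. Of 9 hypoxia-linked genes, 3 were higher over all days, namely Bnip3, a mitophagy receptor (0.74, SE 0.15, limma adjusted p = 0.00589), Vegfa, a vascular growth factor (0.58, adjusted p = 0.0111), and the glucose transporter Slc2a1 (0.24, adjusted p = 0.0367). Of 7 epithelial markers 2 were higher (Epcam by 0.36 and Cdh1 by 0.25) and none was lower. Lower were 1 of 6 colonocyte markers (Car1, list median -0.96), 1 of 5 goblet markers (Fcgbp, list median -1.89) and 1 of 7 proliferation markers (Mcm5, list median -0.21), with none higher. Within the colonocyte list Krt20 went the other way, averaging 248.9 in WT and 279.4 in Tnfr2-/- libraries. The part of these in the levels of Ndufa4l2 and Cox4i2 was not tested.

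At the early days, 1 of 82 members was called, against 1.2% of all genes (0.768% higher and 0.428% lower). This was Ndufa4l2, which was higher by 2.26 (log2, SE 0.50, limma adjusted p = 0.0441). The call was lost with replicate as a correlated block (adjusted p = 0.0926), with a pseudocount of 0.1 (0.103) or 5 (0.0637) and on replicate means (0.389), and on leaving out 15 of the 20 libraries, each in turn (0.0518 to 0.145), but on protein-coding transcripts alone it was 1.80 (adjusted p = 0.0153). The largest negative value was that of Cox7a1, the heart and muscle version of COX7A, at -0.68 (SE 0.73, adjusted p = 0.767). No member had early libraries of the genotypes that did not overlap, against 0.576% of all genes with Tnfr2-/- above WT and 0.702% below.

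At the late days the members leaned lower in Tnfr2-/- colonoids. The log2 fold change was positive for 20 of 82 members, with a median of -0.16 against -0.05 over all genes, and the median by complex was between -0.11 (complex IV) and -0.23 (complex II). It was negative under each scaling tried, from -0.14 with median-of-ratios scaling to -0.25 with quantile normalisation. By library, the median log2 deviation of members from their own mean was 0.34 and 0.06 in WT replicate 1 at 5 and 7 DPP. It was -0.02 and -0.11 in WT replicate 2, -0.04 and -0.22 in Tnfr2-/- replicate 1 and 0.005 and -0.13 in Tnfr2-/- replicate 2. On the deposited scale the lean thus rested largely on WT replicate 1. Few single genes passed the test. Cox4i2 was higher, and 2 members were lower, Ndufv1 among them, or 3 of 82, against 6.45% of all genes (3.8% higher and 2.64% lower). Leaving aside Cox4i2 and Cox7a1, 2 of 80 were called, both lower. Rescaling gave 1 higher and 5 lower, and quantile normalisation 1 and 6. The number rested on single replicates, since it was 20, all of them lower, without WT replicate 2, it was 2, both higher, without WT replicate 1, and it was 0 without either Tnfr2-/- replicate. Leaving out 1 late library at a time gave 8 lower without WT replicate 2 at 5 DPP, 1 without WT replicate 1 at 7 DPP or Tnfr2-/- replicate 1 at 5 DPP, and 0 without any of the other 5 late libraries.

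Markers of cell types and of proliferation at the late days are set beside 3.8% of all genes higher and 2.64% lower. Of all 13539 genes, 3094 had an unadjusted p under 0.05. Of 2 immune markers tested, 1 was higher in Tnfr2-/- cultures and none was lower. The immune list summed to 10.16 to 21.03 in WT late and 25.61 to 48.43 in Tnfr2-/- late libraries, without overlap. Of 6 colonocyte markers 1 was lower in Tnfr2-/- cultures, the carbonic anhydrase Car1, and none was higher. Car1 lay between 130.1 and 789.3 in WT late and between 6.14 and 20.4 in Tnfr2-/- late libraries, without overlap, at -4.73 on the log2 scale (SE 1.19, limma adjusted p = 0.0315). The median of the list was -1.27, and it summed to 302.8 to 983 in WT late and 322.8 to 375.4 in Tnfr2-/- late libraries. Krt20 went the other way, averaging 266 in WT late and 337.8 in Tnfr2-/- late libraries. Car4, Slc26a3, Aqp8 and Guca2a had lower means in Tnfr2-/-, with no late mean above 8.48. Of 5 goblet markers tested none was called by limma, 2 had an unadjusted p under 0.05, and the median was -1.96. The goblet list summed to 264 to 2196 in WT late and 202.1 to 303.5 in Tnfr2-/- late libraries. Of 9 fibroblast markers, Dcn was higher by 2.74 (SE 0.22, limma adjusted p = 2.156e-05), none was lower, 4 had an unadjusted p under 0.05, and the median was 0.74. The list summed to 1092 to 3555 in WT late and 3244 to 7067 in Tnfr2-/- late libraries. On means of 2 replicates against 2 no gene was called at the late days, so the calls of Dcn and Car1 were lost there. Of 7 proliferation markers none was called by limma, 4 had an unadjusted p under 0.05, and the median was -0.45, with sums of 261.3 to 390.4 and 205.5 to 309.8. The part of these in the lower member values was not tested.

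Ndufv1 (ENSMUSG00000037916, chromosome 19, 4007384 to 4012806, minus strand) encodes the flavin-bearing subunit at which complex I takes electrons from NADH. At 5 and 7 DPP it was 127 and 122 in WT replicate 1, 113 and 111 in WT replicate 2, 77.6 and 77.1 in Tnfr2-/- replicate 1 and 84.2 and 75.3 in Tnfr2-/- replicate 2. The 4 Tnfr2-/- libraries lay below the 4 WT libraries, by -0.58 on the log2 scale (SE 0.15, limma adjusted p = 0.0313). These are 2 replicates on 2 days, and on means of 2 replicates against 2 the call was lost (adjusted p = 0.233). On protein-coding transcripts alone Ndufv1 was not called, at -0.43 (adjusted p = 0.0939), and the call was lost on leaving out 7 of the 20 libraries, each in turn, and 3 of the 4 replicates.

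Cox4i2 was higher at the late days by 2.10 (log2, SE 0.56), which is a description, since these libraries made it a member. Its call was lost with a pseudocount of 0.1, on replicate means, without any 1 of the 4 replicates and on leaving out 11 of the 20 libraries, each in turn. Ndufa4l2 stood at 1.28 (SE 0.61, adjusted p = 0.233), and Cox7a1 at -0.68 (SE 0.90, adjusted p = 0.701). Cox7a1 was 39.5 and 24.6 in WT replicate 1 and 0 and 7.10 in WT replicate 2 on these days, so its sign rests on 1 replicate. In all, 7 members had late Tnfr2-/- libraries wholly below WT (among them Ndufa8, Ndufv1, Ndufa9, Sdhd, Sdha and Atp5l), against 6.07% of all genes. The accessory subunit Ndufb3 lay wholly above, against 5.35%. Named subunits outside complex I (Sdha, Sdhb, Uqcrc1, Uqcrfs1, Cox4i1, Atp5a1 and Atp5b) ranged from -0.42 for Sdha to -0.19 for Uqcrc1 on the log2 scale, and none was called.

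Whether the genotype difference itself changed from early to late was tested as an interaction. No member was called by limma, against 0.148% of all genes (0.118% higher and 0.0295% lower). An unadjusted p under 0.05 was found for 9 of 82 members and for 1583 of 13539 genes, which are similar shares. The median was -0.16 against -0.03 over all genes, and 21 of 82 values were positive. The extremes were Cox4i2 at 1.12 (SE 0.72, adjusted p = 0.572) and Ndufa4l2 at -0.99 (SE 0.79, adjusted p = 0.654), neither passing the test, and on protein-coding transcripts alone Ndufa4l2 was at -0.12 (adjusted p = 0.956). Thus the late lean toward lower values in Tnfr2-/- colonoids was not shown for any single member to differ from the early days.

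The isoform pairs were also expressed as shares, which need no scaling between libraries. Ndufa4l2 made up 0.577% ± 0.740 of the sum with Ndufa4 in WT early (SD, n = 6) and 7.30% ± 4.30 in WT late libraries (SD, n = 4). In Tnfr2-/- libraries it made up 3.01% ± 1.66 early and 16.0% ± 6.43 late. On protein-coding transcripts alone its late share was 2.65% ± 1.93 in WT and 7.75% ± 4.85 in Tnfr2-/- libraries, and its early share 0.176% ± 0.143 and 1.14% ± 0.579. Ndufa4 itself ranged from 410 to 785 over all libraries. Cox4i2 held at most 3.57% of the COX4 pair in any library, or 6.36% on protein-coding transcripts alone, so that Cox4i1 supplied nearly all of it in both genotypes.

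Cox6b2, the testis version of COX6B, held 1.30% to 4.46% of its pair, or 2.28% to 11.7% on protein-coding transcripts alone. Among the 3 genes for the identical c subunit of ATP synthase, Atp5g3 supplied 53.2% to 67.8% in each library. The share of Atp5g1 in Tnfr2-/- libraries was 28.4% ± 2.96 early (SD, n = 6) and 21.3% ± 3.49 late (SD, n = 4), while in WT it was 24.4% ± 1.15 and 24.4% ± 4.29. The early range in Tnfr2-/- was 25.4% to 33.8% and the late range 17.1% to 24.2%, without overlap.

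**Figure D3:**
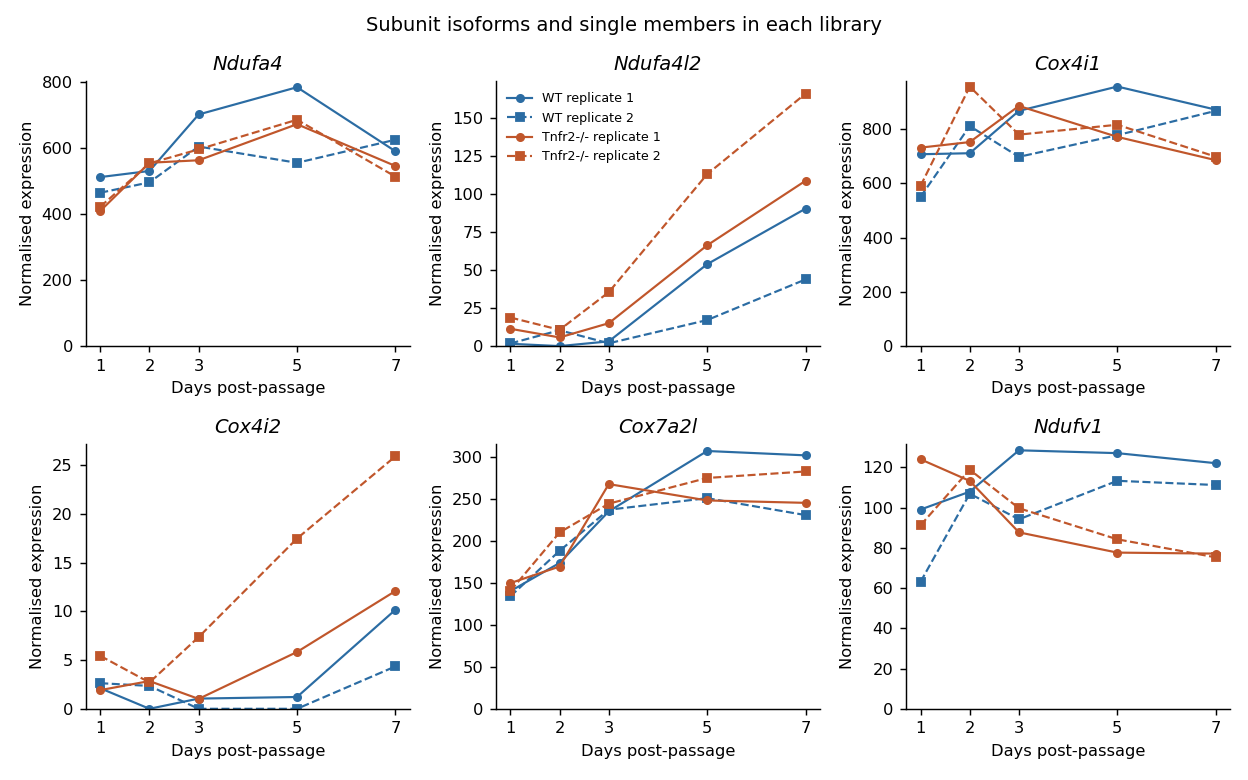
Normalised expression of Ndufa4, Ndufa4l2, Cox4i1, Cox4i2, Cox7a2l and Ndufv1 is plotted against days post-passage, with 1 line for each replicate (WT blue, Tnfr2-/- orange) and axes that start at 0. Ndufa4l2 climbs after 3 DPP in the 4 replicates, to 43.8 to 166.0 at 7 DPP, while Ndufv1 in the Tnfr2-/- replicates falls to 75.3 and 77.1 by that day.

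Maturation was examined next, as late against early within each genotype. In WT colonoids 7 members rose and 1 fell, or 8 of 82, against 20.1% of all genes (11.6% higher and 8.52% lower). Rescaling gave 5 higher and 4 lower. The median change of the members was 0.01 on the log2 scale, against 0.02 over all genes, and its sign turned under the 3 other scalings (-0.01 to -0.07). Ndufa4l2 rose most, by 3.85 (SE 0.56, limma adjusted p = 0.000678). Others that rose were Cox6c2 (0.77), Ndufa6 (0.62), Cox7a2l (0.58), Sdhd (0.37) and Atp5c1 (0.35), the gamma subunit that turns within ATP synthase. Cox6c2 is the processed pseudogene whose division of reads with Cox6c is uncertain, so its rise is uncertain too. Atp5k, the e subunit at the interface of ATP synthase dimers, fell by 0.44 (SE 0.11, adjusted p = 0.0157). Atp5g2 had the lowest value, -0.45 (SE 0.26, adjusted p = 0.255). Without the library of WT replicate 1 at 5 DPP or all its libraries 3 members were called. There were 4 without either Tnfr2-/- replicate, and 5 without WT replicate 1 at 7 DPP or any early library of WT replicate 2. On protein-coding transcripts alone Ndufa6 (adjusted p = 0.103) was lost. The call of Sdhd was lost in 4 of 13 alternatives that keep every library, on leaving out 12 of the 20 libraries, each in turn, and without any 1 of the 4 replicates. That of Atp5c1 was lost in 3 of the 13, on leaving out 15 libraries and without 3 of the 4 replicates.

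In Tnfr2-/- colonoids most called members fell. There 4 members rose and 11 fell, or 15 of 82, against 20.3% of all genes (10.4% higher and 9.93% lower), and the median change was -0.12 against 0.02 over all genes. The median was negative under each scaling tried, and 19 of 82 values were positive. Ndufa4l2 rose by 2.86 (SE 0.56, limma adjusted p = 0.00330), Ndufa6 by 0.79 and Cox7a2l by 0.45. Cox4i2 was higher by 1.84, a description for the reason given above, and leaving it and Cox7a1 aside 3 of 80 rose and 11 fell. The members called lower were 7 of complex I and 4 of complex V, with none of complexes II, III or IV. They were Ndufa5, Ndufb6, Ndufb7, Ndufv1, Ndufa12, Ndufs6 and Ndufa8, all accessory subunits but Ndufv1, and Atp5g1, Atp5k, Atp5b and Atp5o. This split by complex was not tested, and complexes II and III hold only 4 and 8 members. In complex III, 3 of 8 had an unadjusted p under 0.05 in either direction, beside 4 of 17 in complex V. Uqcr11 of complex III lay wholly below its early range.

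Atp5g1 fell most, by 0.69 (SE 0.15, limma adjusted p = 0.00723). Its Tnfr2-/- values in order of day were 206, 231, 227, 125 and 116 in replicate 1 and 214, 267, 261, 178 and 166 in replicate 2, so that each late library lay below each early one. Atp5b, the catalytic subunit, fell by 0.37 (SE 0.09, adjusted p = 0.0131), from 1156 ± 217 early (SD, n = 6) to 883 ± 55.5 late (SD, n = 4). Among complex I genes, Ndufa5 fell by 0.58, Ndufb6 by 0.50 and Ndufb7 by 0.44. In Tnfr2-/- cultures 7 members lay wholly below their early range, against 7.36% of all genes, and 2 wholly above, against 9.56%. In WT cultures 2 lay wholly above (4.97% of all genes) and 0 below (3.92%).

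These calls varied with processing. On protein-coding transcripts alone 9 of the 15 remained, and Ndufa5, Ndufa6, Ndufs6, Ndufv1, Atp5b and Atp5o were lost. The number was 0 without either Tnfr2-/- replicate, 6 without the library of Tnfr2-/- replicate 1 at 7 DPP, 9 without its library at 5 DPP, and 18 with replicate as a correlated block. Leaving out 1 library at a time, Ndufa8 was lost in 15 of the 20 cases, Ndufa5 in 12, and Ndufv1 and Atp5o in 11 each. Marker lists are set beside 11.6% of all genes higher and 8.52% lower in WT, and 10.4% and 9.93% in Tnfr2-/-. Of 7 proliferation markers 6 fell in each genotype. Of 9 fibroblast markers 3 rose and none fell in Tnfr2-/- cultures (Col1a1, Col1a2 and Dcn), while in WT 1 rose and 1 fell. Of 6 colonocyte markers 1 rose in WT and none in Tnfr2-/-, with none lower. Of 5 goblet markers 4 rose in each genotype (Muc2, Tff3, Fcgbp and Agr2), with list medians of 3.63 in WT and 3.22 in Tnfr2-/-. Epithelial markers moved both ways in Tnfr2-/- cultures, where Epcam and Cdh1 rose and Krt8 and Krt19 fell, while in WT Epcam, Cdh1 and Vil1 rose. Their part in these changes was not tested.

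**Figure D4:**
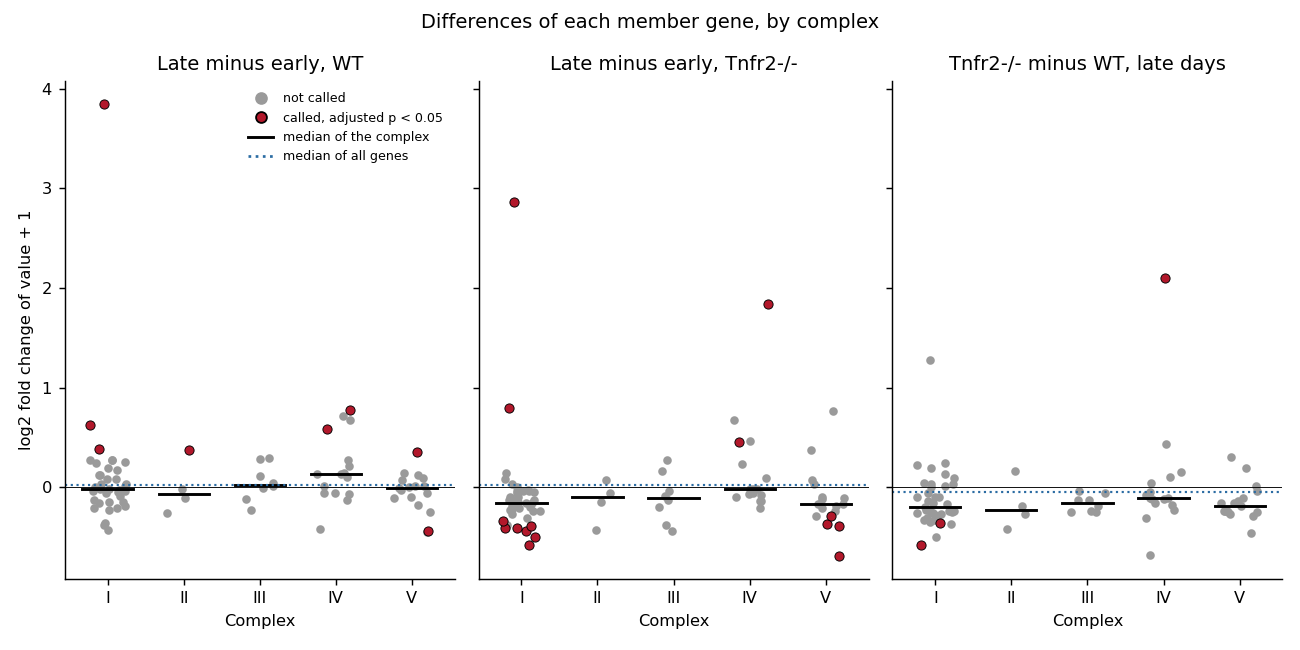
The log2 fold change of value + 1 is shown for each member by complex, for late minus early in WT, late minus early in Tnfr2-/- and Tnfr2-/- minus WT at the late days. Red points passed the test, black bars mark the median of a complex and the dotted line the median of all genes, and in the middle panel 11 red points lie below 0, in complexes I and V.

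Cox7a2l and Ndufa6 rose in both genotypes. Cox7a2l (ENSMUSG00000024248, chromosome 17, 83501918 to 83517330, minus strand), a COX7A-related protein known from respiratory supercomplexes, of which C57BL/6 mice carry a short form, was 140, 174, 235, 307 and 302 in WT replicate 1 and 134, 188, 237, 251 and 231 in WT replicate 2. Among Tnfr2-/- cultures it was 150, 169, 267, 248 and 245 in Tnfr2-/- replicate 1 and 140, 210, 244, 275 and 282 in Tnfr2-/- replicate 2. In each replicate it rose from day 1 to day 3 and stayed above its day 2 value. Its value lay on 1 protein-coding transcript, so that alternative left it as it was. Ndufa6, which docks the acyl carrier protein on complex I, averaged 190.8 ± 61.6 early and 292.7 ± 83.6 late in WT, and 189.4 ± 35.5 and 325.3 ± 28.3 in Tnfr2-/- (SD, n = 6 and 4).

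The promoters of members that moved together were read for the motifs of factors known to drive respiratory genes. RefSeq windows (GRCm38.p6, 250 bases before to 50 after the start) were found for 66 of 82 members, the first window listed being used. The ETS core bound by GABP, CCGGAA, was present on either strand in 25 of 66 members (37.9%) and in 15.2% of 27025 promoters. The NRF1 core, GCATGCGC, was present in 10 members (15.2%) and in 2.8% of promoters, and YY1 letters, ATGGCGGC, in 6 members, all of complex I (9.09%), and 2.38%. The letters ACGTG of the hypoxia response element were in 25.8% of members and 19.7% of promoters. Of the 11 members that fell in late Tnfr2-/- cultures, 5 held the ETS core and 2 the NRF1 core. A match is a description of letters and not of binding. Shown here are 30-base stretches around the first match in the members that fell, 5′ to 3′ on the strand of the gene, with the match in capitals. In Atp5k the NRF1 core and its reverse complement overlap, which gives 2 matches.
Ndufb7 (chr8:83566726-83566755, plus strand, ETS): agcctagatgacCCGGAAgacactgaaggg
Ndufv1 (chr19:4012807-4012836, minus strand, ETS): acgagagtaaatTTCCGGtctctgtgcccg
Ndufb6 (chr4:40279635-40279664, minus strand, ETS): tcgtccttgttcTTCCGGtcccctccccta
Atp5o (chr16:91931737-91931766, minus strand, ETS): ttaattttctggTTCCGGttcacgagtcca
Atp5k (chr5:108434369-108434398, minus strand, ETS): cctcagttgagcTTCCGGcgcgaaggtcac
Atp5k (chr5:108434431-108434460, minus strand, NRF1): ctttcactgcgGCGCATGCgcctttctggc
Ndufa8 (chr2:36049328-36049357, minus strand, NRF1): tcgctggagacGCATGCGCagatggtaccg

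Relative to the start, the first base of the ETS match lay at -20 in Ndufb7, -69 in Ndufv1, -231 in Ndufb6, -124 in Atp5o and 14 in Atp5k, and that of the NRF1 match at -50 in Atp5k and -8 in Ndufa8. Ndufa6, which rose in both genotypes, also held the NRF1 core, and Sdhd, which rose in WT, the ETS core, so the same letters occurred in members of either direction.

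Neighbouring days were then compared over both genotypes. From day 1 to day 2 the members leaned higher, with 63 of 82 values positive and a median of 0.13 against -0.01 over all genes. None was called by limma, against 0.761% of all genes (0.51% higher and 0.251% lower). An unadjusted p under 0.05 was found for 10 of 82 members and for 1676 of 13539 genes, which are similar shares. Ndufa10, at 0.74 (SE 0.18, adjusted p = 0.0785), was called with replicate as a correlated block, but on protein-coding transcripts alone it stood at 0.18 (SE 0.33, adjusted p = 0.881). The extremes were Cox7a1 at 0.76 (SE 0.90, adjusted p = 0.801) and Atp5s at -0.65 (SE 0.39, adjusted p = 0.561). From day 2 to day 3, 0 members and 0% of all genes were called, with 3 members and 1449 genes at an unadjusted p under 0.05. Ndufa4l2 had 0.73 (SE 0.61), or 1.18 on protein-coding transcripts alone, and Cox7a1 -0.62 (SE 0.90).

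From day 3 to day 5 Ndufa4l2 alone was called, by 2.53 (SE 0.61, limma adjusted p = 0.04998), against 2.18% of all genes (1.21% higher and 0.968% lower). That call sat at the threshold and was lost on leaving out 16 of the 20 libraries, each in turn, and in 6 of 13 alternatives that keep every library, protein-coding transcripts alone among them (1.48, adjusted p = 0.0709). Sdha, the flavoprotein of complex II, had the lowest value, -0.54 (SE 0.24, adjusted p = 0.284), and on protein-coding transcripts alone it was at -0.10 (adjusted p = 0.723). From day 5 to day 7 the members leaned lower, with 13 of 82 values positive and a median of -0.15 against 0 over all genes. None was called by limma, against 0.0222% of all genes (0.00739% higher and 0.0148% lower). An unadjusted p under 0.05 was found for 11 of 82 members and for 1548 of 13539 genes, which are similar shares. Cox4i2 was at 1.56 (SE 0.56, adjusted p = 0.292) and Ndufa10 at -0.67 (SE 0.18, adjusted p = 0.191). On protein-coding transcripts alone, which held 11.2% of its value, Ndufa10 was at -0.06 (adjusted p = 0.967). In the day means of Tnfr2-/- cultures, 39 of 82 members peaked at day 2, against 18.8% of all genes, with 31 in replicate 1 and 42 in replicate 2. In WT 30 peaked at day 5, against 20.3% of all genes. This rested on WT replicate 1, where 39 peaked at day 5, while in WT replicate 2 there were 14 at day 5 and 28 at day 2.

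Related mitochondrial lists changed differently over the course. Between genotypes at the late days several also leaned lower in Tnfr2-/- cultures, beside medians of -0.16 for the members and -0.05 for all genes. Medians were -0.16 for the subunits encoded in mitochondrial DNA, -0.14 for the mitochondrial ribosome and -0.20 for assembly factors. They were -0.29 for the citric acid cycle and -0.29 for regulators of mitochondrial biogenesis. Carriers and further subunits had -0.09 and the hypoxia-linked list 0.29. The 13 subunits encoded in mitochondrial DNA summed to between 40610 and 68790 per library. In late WT cultures 6 rose and none fell (median 0.36), against 11.6% of all genes higher, and in late Tnfr2-/- cultures 3 rose and none fell (median 0.11), against 10.4%. mt-Co1, the catalytic subunit of complex IV, rose by 0.61 in WT (SE 0.10, limma adjusted p = 0.00162) and by 0.52 in Tnfr2-/- (SE 0.10, adjusted p = 0.00364). No gene of this list was called between genotypes. Their levels were not compared with those of nuclear genes.

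Of 78 nuclear genes of the mitochondrial ribosome, which makes those 13 proteins, 13 fell and none rose in WT cultures (median -0.27), against 8.52% of all genes lower. In Tnfr2-/- cultures 26 fell and none rose (median -0.32), against 9.93%. Of 45 assembly factors tested, 9 fell in Tnfr2-/- cultures (median -0.32) and 3 in WT cultures (median -0.07), with none higher in either, against the same 9.93% and 8.52% of all genes. Ndufaf4, a complex I assembly factor, fell by 1.15 in Tnfr2-/- (SE 0.17, limma adjusted p = 0.000581) and by 0.88 in WT (SE 0.17, adjusted p = 0.00345). Between genotypes at the late days 3 of 45 assembly factors were lower in Tnfr2-/- and none higher, against 2.64% of all genes lower. These were Cox10, a heme A synthesis enzyme, by 0.73, Ndufaf1 by 0.60 and Lrpprc, which stabilises mitochondrial mRNA, by 0.50.

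Of 15 citric acid cycle genes, 3 fell in late Tnfr2-/- cultures, namely Idh3a by 0.54, Idh3g by 0.45 and the malate dehydrogenase Mdh2 by 0.42, against 9.93% of all genes lower. At the late days 1 of the 15, Idh3g, was lower in Tnfr2-/- by 0.54 (SE 0.14, limma adjusted p = 0.0392), against 2.64% of all genes lower. Of 13 regulators of mitochondrial biogenesis, 2 rose and none fell in late WT cultures, against 11.6% of all genes higher. They were the coactivator Ppargc1a, by 1.85 (SE 0.39, adjusted p = 0.00554), and its partner receptor Esrra, by 0.54. For late against early in Tnfr2-/- cultures none of the 13 was called by limma. An unadjusted p under 0.05 was found for 2 of them and for 4409 of 13539 genes. Ppargc1a stood at 0.81 (adjusted p = 0.166) and Esrra at -0.09 (adjusted p = 0.736). The interaction was called for neither (-1.03, adjusted p = 0.498, and -0.63, adjusted p = 0.291). Against WT at the late days, 1 of the 13, the GABP subunit Gabpb1, was higher in Tnfr2-/- cultures by 0.57 (adjusted p = 0.0428), against 3.8% of all genes higher. Over all days 1 of the 13, Gabpb2, was lower by 0.32 (adjusted p = 0.0423), against 3.09% of all genes lower.

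Of 8 carriers and further subunits, 1 rose and 2 fell in WT cultures, against 11.6% and 8.52% of all genes. In Tnfr2-/- cultures 1 rose and 1 fell, against 10.4% and 9.93%. Cytochrome c (Cycs) fell by 0.72 in WT and by 0.55 in Tnfr2-/- cultures, while Etfdh, which feeds electrons from fatty acid oxidation into the quinone pool, rose by 0.38 and 0.43. Between genotypes at the late days 1 of the 8 was higher in Tnfr2-/- and none lower, against 3.8% of all genes higher. Of the 9 hypoxia-linked genes, 7 rose in each genotype, with medians of 1.31 in WT and 0.96 in Tnfr2-/-, against 11.6% and 10.4% of all genes higher. Bnip3 rose by 2.28 (SE 0.21) in WT and 1.96 (SE 0.21) in Tnfr2-/-. Pdk1, a kinase that restrains entry of pyruvate into the cycle, rose by 1.43 and 0.93.

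**Figure D5:**
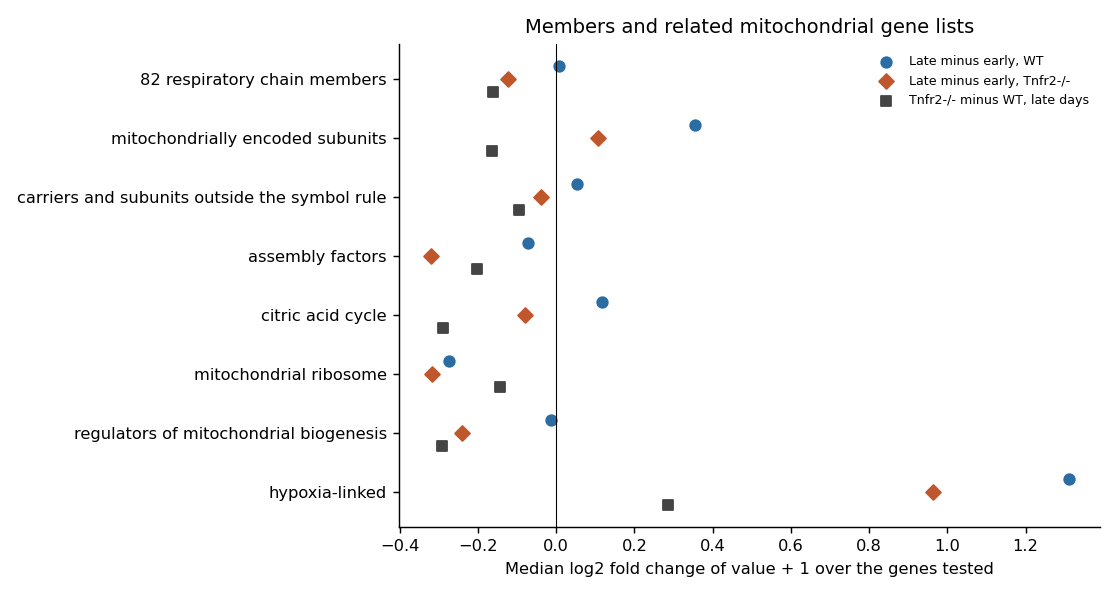
Points give the median log2 fold change of value + 1 over the tested genes of each list, for late minus early in WT (blue circles), late minus early in Tnfr2-/- (orange diamonds) and Tnfr2-/- minus WT at the late days (grey squares). The respiratory chain members lie near 0 in WT (0.01) and at -0.12 in Tnfr2-/-, the mitochondrial ribosome at -0.27 and -0.32, and the hypoxia-linked list at 1.31 and 0.96.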

How the data were processed

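The submitters' processing notes name CASAVA, kallisto and sleuth, and the build mm10. The deposited table gives a signal per transcript, which is TPM divided by the authors' size factor for the library. The authors' test columns (p-values, q-values and variance terms) were not used. The tests had been planned for TPM or counts. The table held this signal, so limma on a log scale was used.

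Of 113974 lines, 781 were repeats, leaving 113193 transcripts. Another 199 without a symbol (at most 0.0989% of a library) were left out, and values were summed per symbol. limma 3.58.1 (R 4.3.3) was fitted with a mean-variance trend to log2(value + 1) of 13539 genes with a mean of at least 1. Fold changes of low genes are therefore understated. Benjamini-Hochberg adjustment covered all genes tested. Genotype over all days came from day plus genotype, and other contrasts from 10 group means. The script was tested on simulated data. BLAST 2.17.0 found shared transcript sequence, and GENCODE M21 gave transcript types.

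Members, lists and tests were chosen with earlier results of these data known. Named genes were the highest and lowest of each complex, called members (the 3 largest in each direction where over 8), the extremes of each comparison, isoform sets, main subunits and up to 3 called genes of each list. Libraries with the same replicate number in the 2 genotypes did not deviate together (Pearson r across genes of -0.0536 to 0.0761). They were therefore not paired across genotypes, although 2 libraries a group cannot exclude a pairing. Within a genotype, r between days of 1 number was 0.0997 to 0.307 in WT and -0.0511 to 0.08 in Tnfr2-/-, where it was about as low as across genotypes. Alternatives were other pseudocounts, filters and scalings, replicate blocks, replicate means, left-out libraries and replicates, and, added after seeing the data, pseudogenes summed into parents and protein-coding transcripts alone. Values of some single genes are not reported here, although those genes remain in the counts, sums and medians.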

Additional observations from a re-analysis of the deposited data

Results flagged for a closer look

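Within each genotype and phase, a library was singled out where its gap to the next library was large for the range of the set (6 early or 4 late libraries). Of 116 sets examined, 11 held such a library. The limits used give about 1 in 20 by chance only for independent draws from 1 population. These sets mix days and replicates, and genes and sums share libraries, so 11 cannot be read against that rate. WT replicate 1 accounts for 7 of them. Its complex II sum was 804.4 at 3 DPP, with the next early WT library at 649.7, and 786.1 at 5 DPP, with the next late one at 613.2. At 3 DPP it also had the highest early WT value of Atp5c1 (362.2), Ndufa6 (308.7) and Ndufb7 (118.8), and at 5 DPP the highest late WT value of Atp5o (536.0) and Ndufa8 (138.0).

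WT replicate 2 at 2 DPP had 10.43 for Ndufa4l2, with the next early WT library at 3.102. On protein-coding transcripts alone this library is listed at 0. In Tnfr2-/- cultures, replicate 2 stood apart for Atp5o at 5 DPP (413.4) and Ndufa8 at 7 DPP (102.6), and replicate 1 for Atp5s at 3 DPP (15.88).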

How the results depend on the processing

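Counts of called members rested on few replicates, and the reads behind a value are not known. Rescaling each library to the same total gave 8 called members over all days, 6 at the late days and 0 from day 3 to 5. Quantile normalisation gave 5, 7 and 0. With a pseudocount of 0.1, no filter on low values or no mean-variance trend, 0 were called at the early days and 0 from day 3 to 5, and a pseudocount of 5 gave 0 at the early days. Without a filter 5 were called for late against early in WT. Protein-coding transcripts alone gave 9 for late against early in Tnfr2-/- and 0 from day 3 to 5. With replicate as a correlated block (a replicate block) 1 was called over all days, 0 at the early days and 1 from day 1 to 2, and with the replicate number as a fixed block 1 from day 1 to 2. Apart from the gains in late Tnfr2-/- cultures, where 18 and 16 were called, the block changed no other member's call. Means per replicate gave 0 over all days, at the early days and at the late days, with 7, 3 and 0 genes called in all. Leaving out libraries or replicates gave 0 to 9 called members over all days, 0 to 1 early, 0 to 20 late, 0 to 0 for the interaction, 3 to 12 for late against early in WT, 0 to 19 in Tnfr2-/-, 0 to 2 from day 1 to 2, 0 to 0 from day 2 to 3, 0 to 1 from day 3 to 5 and 0 to 1 from day 5 to 7. A lone replicate was then assumed to vary like the other groups. Over the same left-out libraries and replicates, Cox7a1 ranged from -2.43 to 1.07 at the late days (0.655 without WT replicate 1 at day 5), from -1.37 to 0.0154 over all days and from -1.26 to 0.0302 from day 2 to 3, and Ndufa4l2 from -0.28 to 1.7445 from day 2 to 3 (-0.15 without WT replicate 1 at day 2) and from -2.1591 to 0.19 in the interaction. The upper ends for Cox7a1 and the signs turned for Ndufa4l2 came without WT replicate 1, except that 0.0302 came without Tnfr2-/- replicate 1 at day 3. The cause was not tested.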

Other observations

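Transcript types divided the levels of some members unevenly. Cox4i1 had 43.6% of its value on protein-coding transcripts and 56.3% on retained-intron transcripts, and Cox6b1 had 41.0% on protein-coding transcripts. Ndufa4l2 had 40.0% on protein-coding transcripts, the rest being on a transcript annotated as processed, and on the protein-coding part it was 12.6 and 28.4 in WT replicate 1, 2.73 and 25.5 in WT replicate 2, 26.7 and 37.1 in Tnfr2-/- replicate 1 and 43.9 and 89.5 in Tnfr2-/- replicate 2 at 5 and 7 DPP. On that transcript type it was also called at the late days, where the whole gene was not. The 7 core subunits of complex I among the members had a median level of 101, and the other 30 members of the complex 128.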
